A study of Mus musculus with 6 samples.

Results

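The hexosamine biosynthetic pathway and the O-GlcNAc transferase that uses its product are described here through 7 genes, Gfpt1, Gfpt2, Gnpnat1, Pgm3, Uap1, Nagk and Ogt, out of 55376 genes in the count table. They are the enzymes of the route, and the set was selected on a measured value: Gfpt2 is abundant in input RNA and low in the CPEB4 precipitate. Gfpt2 in every comparison, and each of the 7 genes in the comparison of CPEB4 RIP with input, are therefore given as a description without a test. The other 6 genes were tested in the comparisons of CPEB4 RIP with IgG RIP and of IgG RIP with input.

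The pathway takes fructose 6-phosphate from glycolysis and turns it, with glutamine and acetyl-CoA, into UDP-N-acetylglucosamine (UDP-GlcNAc). GFPT1 and its paralog GFPT2 catalyse the first and rate-limiting step. GNPNAT1 adds the acetyl group, PGM3 moves the phosphate, and UAP1 joins the sugar to UDP. NAGK returns N-acetylglucosamine freed by breakdown to the route. OGT places single GlcNAc residues on serine and threonine of nuclear and cytoplasmic proteins, and OGA removes them. UDP-GlcNAc also feeds N-glycans, hyaluronan and heparan sulfate, which lie in and around the muscle stem cell niche.

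The 6 libraries formed 3 groups of 2 and came from muscle stem cells of C57BL/6 mice aged 3 months, isolated by fluorescence-activated cell sorting. In RNA immunoprecipitation (RIP) an antibody pulls down a protein with the RNA bound to it. The groups were CPEB4 RIP, with an antibody to the cytoplasmic polyadenylation element-binding protein CPEB4, IgG RIP as its nonspecific control, and input, the total RNA. No group carried an engineered allele or a treatment, per the labels, which name neither the sex nor the number of animals in a library. Replicates of CPEB4 RIP are described by the submitters as biological; for the other groups nothing says that the cells were separate, and the p-values then cover a spread that may be technical.

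Libraries were made by SMART-seq2, which copies whole transcripts from little RNA, and held 9018323 to 20843042 assigned counts. The IgG RIP replicates were farther apart (Pearson r of log CPM across 18054 genes of 0.873) than those of CPEB4 RIP (0.981) or input (0.975). Of 12 markers of muscle stem cells 0 were at 0 in all libraries, and their summed level was 63396 to 69224 CPM in CPEB4 RIP, 61386 to 62734 CPM in IgG RIP and 46324 to 47502 CPM in input. The syndecan Sdc4 made up 86.0% to 90.7% of that sum. The other 11 summed to 5897 to 7268 CPM in CPEB4 RIP, 5898 to 8603 CPM in IgG RIP and 4727 to 5655 CPM in input. At an adjusted p under 0.05 by edgeR, 1 of the 12 was higher in CPEB4 RIP over IgG and 1 was lower. These were Fgfr4 (log2 fold change 0.75) and Vcam1 (-0.87). Over input 4 were higher (Sdc4, Chrdl2, Spry1 and Fgfr4) and 2 were lower (Vcam1, -1.18, and Calcr, -1.38), at a median of 0.65. Of all genes, 8.21% were called over IgG and 12.7% over input. The 13 markers of fibro-adipogenic cells, the matrix-producing cells of muscle, summed to 2012 to 2656 CPM in CPEB4 RIP, 1293 to 1822 CPM in IgG RIP and 916 to 1210.4 CPM in input, with 0 of them at 0 in all libraries. Erythroid markers (7 genes) summed to 328 to 658 CPM in CPEB4 RIP, 89.0 to 147 CPM in IgG RIP and 109 to 180 CPM in input, and leukocyte markers (12 genes) to 114 to 119 CPM, 58.1 to 84.7 CPM and 45.8 to 67.0 CPM in the same groups. Myofibre markers (12 genes) summed to 227 to 290.0 CPM in CPEB4 RIP, 164 to 178 CPM in IgG RIP and 159 to 217 CPM in input. Of the 11 tested, 4 were higher over IgG, beside 4.79% of all genes. Of the erythroid markers 3 of 6 tested were higher over IgG, of the leukocyte markers 1 of 10 and of the fibro-adipogenic markers 2 of 13. The sums of these 4 lists were highest in CPEB4 RIP, as was that of all 12 muscle stem cell markers. That of pericyte and smooth muscle markers (10 genes) was 665 to 885 CPM in CPEB4 RIP, 724 to 1114 CPM in IgG RIP and 672 to 823 CPM in input. Endothelial markers (12 genes) summed to 502 to 743 CPM, 391 to 535 CPM and 410 to 449 CPM in the same groups. Tenocyte and Schwann cell markers (8 genes) summed to 87.3 to 149 CPM, 88.1 to 160 CPM and 67.9 to 86.4 CPM. In both lists CPEB4 RIP overlapped with IgG RIP. The part of these cell types in the results was not tested. CPM, counts scaled to a common library total, is a share of a library, scaled by trimmed means (TMM), so a message that keeps its amount has a lower CPM where other messages take more of the library. In input, a bulk sample, fewer cells of a type and less RNA per cell cannot be told apart. In the RIP groups a level also depends on which RNA was pulled down, so the marker sums there do not measure cell make-up.

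Messages for 3 of the 6 tested members, Pgm3, Uap1 and Ogt, were lower in CPEB4 RIP than in IgG RIP, 0 were higher, and Gfpt1, Gnpnat1 and Nagk did not pass the test. Over all 18054 genes tested, 3.42% were lower and 4.79% were higher (8.21% in either direction). The threshold was 0.05 for the p of the quasi-likelihood test of edgeR, adjusted over all genes after Benjamini and Hochberg. The median log2 fold change of the 7 members over IgG was -1.05, and -0.79 without Gfpt2, beside a median of -0.07 over all genes. For 5 of the 7, Gfpt2 and Gfpt1 among them, the CPEB4 RIP libraries lay below both IgG RIP libraries, as they did for 25.5% of all genes tested. All 7 passed the filter on low counts.

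**Figure D1:**
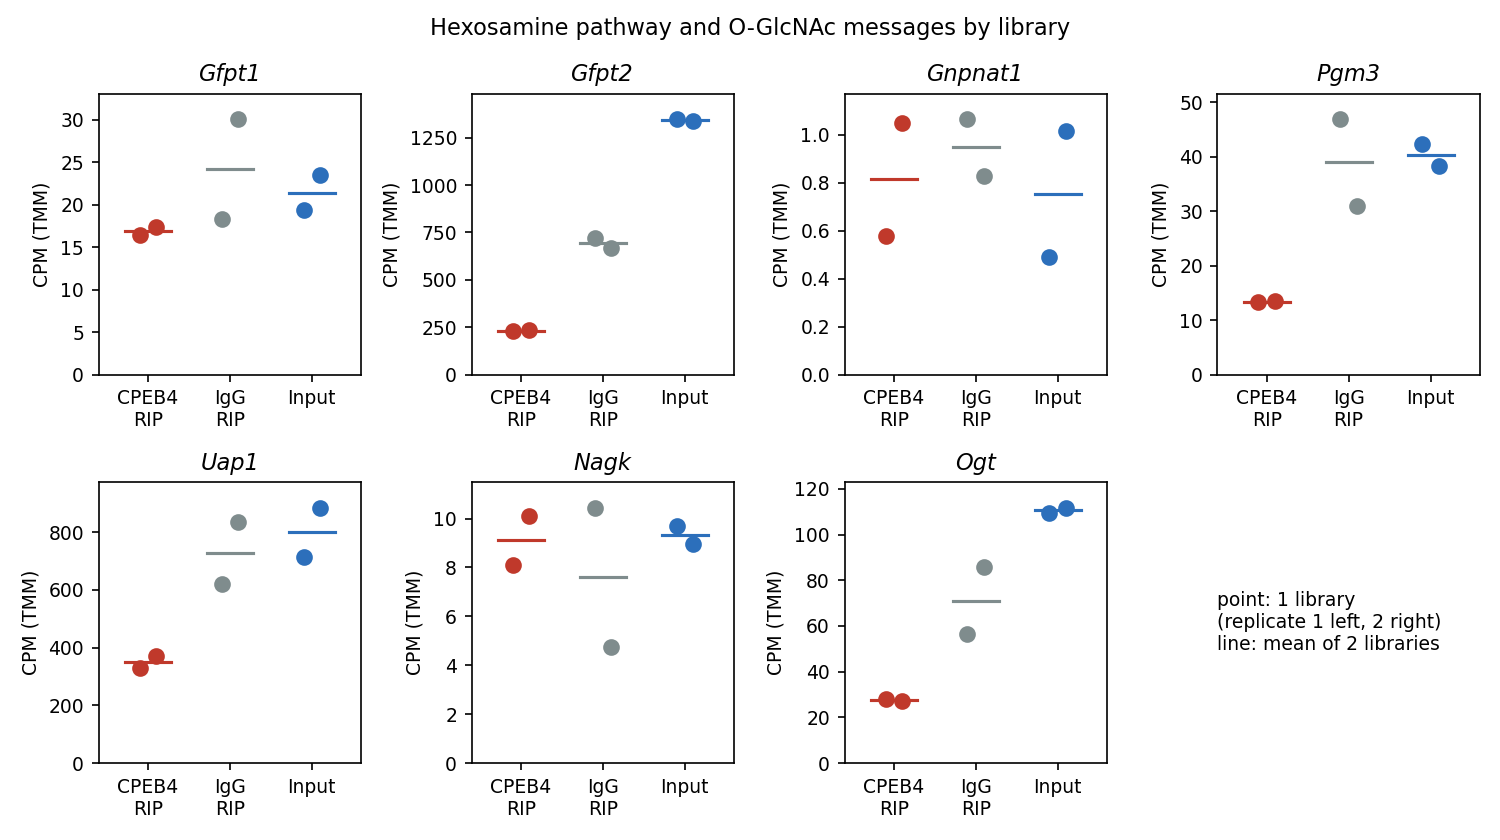
CPM (counts scaled by TMM to a common total) of the 7 genes in each library, with CPEB4 RIP left, IgG RIP in the middle and input right. Each point is 1 library and each line the mean of 2. Gfpt1, Gfpt2, Pgm3, Uap1 and Ogt have both CPEB4 RIP points below every other point, while the groups of Gnpnat1 and Nagk overlap.

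The entry step is carried by a pair of paralogs that differed in level and in pattern. Gfpt2 (gene ID 14584, chromosome 11, 49794155 to 49838620 on GRCm38, the mm10 assembly) stood at 229 and 236 CPM in CPEB4 RIP, 721 and 670.1 CPM in IgG RIP, against 1348 and 1338 CPM in input. The 3 groups did not overlap, and IgG RIP lay between the others. The CPEB4 RIP level was 17.3% of input, a log2 fold change of -2.53 (SE 0.13, n = 2 each), and 33.5% of IgG RIP, a log2 fold change of -1.58 (SE 0.13). Gfpt2 was also low in IgG RIP, at 51.8% of input, a log2 fold change of -0.95 (SE 0.13). The gene was chosen by its levels in CPEB4 RIP and input, and none of these differences is tested. Among the 18054 genes it had rank 1053 from the lowest fold change over input.

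Gfpt1 (gene ID 14583, chromosome 6, 87042846 to 87092207), the paralog that most tissues express, stood at 16.4 and 17.4 CPM in CPEB4 RIP, 18.3 and 30.1 CPM in IgG RIP, against 19.3 and 23.5 CPM in input. Both CPEB4 RIP libraries were the lowest, but the distance to IgG RIP was not beyond the spread (log2 fold change -0.52, SE 0.29, adjusted p = 0.297 by edgeR). The value hung on the IgG RIP libraries: without replicate 1 the log2 fold change was -0.65 with an adjusted p of 0.0341 by edgeR, and without replicate 2 it was 0.02. A fit that leaves out a library has an arm of 1 sample, which is assumed to vary like the other groups. Without IgG RIP replicate 1, edgeR called 2797 genes lower and 4913 higher over IgG, against 618 and 864 with all libraries. Over input the log2 fold change was -0.34 (SE 0.29).

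Per length, in the deposited FPKM (fragments divided by gene model length and by library total), Gfpt2 was the higher of the paralogs in every library. The ratio of Gfpt2 to Gfpt1 was 25.2 and 24.5 in the CPEB4 RIP libraries, 70.8 and 40.2 in IgG RIP, against 126 and 103 in input. The ratio was lowest in CPEB4 RIP and highest in input, with no overlap between groups. Gfpt2 was chosen for being high in input and low in CPEB4 RIP, so this order follows in part from that choice. The ratio was not tested. Within IgG RIP, Gfpt2 had 84.9 and 83.2 FPKM and Gfpt1 had 1.2 and 2.07 FPKM. How reads that match both paralogs were counted is not stated, so some counts may be shared between them.

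The acetyltransferase message Gnpnat1 (gene ID 54342, chromosome 14, 45376421 to 45388987) had few reads, at 7 and 20 counts in CPEB4 RIP, 10 and 11 counts in IgG RIP, against 9 and 13 counts in input. The groups overlapped in CPM, and no difference was detectable at this depth (log2 fold change over IgG -0.20, SE 0.91, adjusted p = 0.911 by edgeR). It is the step of the route with the least RNA in these libraries, at 0.114 ± 0.0548 FPKM in input (SD, n = 2).

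Pgm3 (gene ID 109785, chromosome 9, 86552476 to 86571878), the mutase that follows, stood at 13.3 and 13.5 CPM in CPEB4 RIP, 46.9 and 31.0 CPM in IgG RIP, against 42.4 and 38.3 CPM in input. CPEB4 RIP was below the other libraries, and IgG RIP overlapped with input. Pgm3 fell by 1.54 on the log2 scale over IgG (SE 0.25, adjusted p = 0.0164 by edgeR), lower in 2 of 2 libraries, and was at 33.1% of input, a log2 fold change of -1.59. IgG RIP did not differ from input by more than the spread (log2 fold change -0.05, SE 0.24, adjusted p = 0.961 by edgeR).

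Uap1 (gene ID 107652, chromosome 1, 170141223 to 170174964), the pyrophosphorylase of the last step, stood at 330 and 369 CPM in CPEB4 RIP, 619 and 833 CPM in IgG RIP, against 714 and 885 CPM in input. The pattern was that of Pgm3, with CPEB4 RIP apart and IgG RIP overlapping with input. Uap1 fell by 1.05 on the log2 scale over IgG (SE 0.19, adjusted p = 0.0203 by edgeR), lower in 2 of 2 libraries, and was at 43.7% of input, a log2 fold change of -1.19. Between IgG RIP and input the log2 fold change was -0.14 (SE 0.19, adjusted p = 0.816 by edgeR).

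Nagk (gene ID 56174, chromosome 6, 83794983 to 83802556), the salvage kinase, stood at 8.12 and 10.1 CPM in CPEB4 RIP, 10.4 and 4.76 CPM in IgG RIP, against 9.68 and 8.98 CPM in input. The groups overlapped, with a log2 fold change over IgG of 0.27 (SE 0.43, adjusted p = 0.717 by edgeR) and over input of -0.03 (SE 0.42). Without IgG RIP replicate 1, in the fit that called 4913 genes higher, the log2 fold change over IgG was 1.12 with an adjusted p of 0.0115 by edgeR, and without replicate 2 it was not past the test. The same library was decisive in IgG RIP over input, where the log2 fold change was -0.30 (adjusted p = 0.824) and, without replicate 1, -1.10 (adjusted p = 0.0170, edgeR, with 4356 genes lower in that fit).

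Ogt (gene ID 108155, chromosome X, 101640011 to 101684351), which spends UDP-GlcNAc on proteins, stood at 28.2 and 27.1 CPM in CPEB4 RIP, 56.3 and 85.9 CPM in IgG RIP, against 110 and 112 CPM in input. As with Gfpt2, the 3 groups did not overlap and IgG RIP lay in the middle. Ogt fell by 1.37 on the log2 scale over IgG (SE 0.22, adjusted p = 0.0164 by edgeR), lower in 2 of 2 libraries, and was at 24.9% of input, a log2 fold change of -2.00. IgG RIP was 0.64 lower than input on the log2 scale (log2 fold change -0.64, SE 0.22), which did not pass after adjustment (adjusted p = 0.269 by edgeR). That difference passed without IgG RIP replicate 2 (log2 fold change -1.05, adjusted p = 0.00119, with 1132 genes lower in that fit) and with the DESeq2 Wald test (-0.68, adjusted p = 0.0402).

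The calls of Pgm3, Uap1 and Ogt over IgG were lost without either CPEB4 RIP library. The log2 fold changes were -1.33, -0.76 and -1.18 without replicate 1, and -1.50, -1.09 and -1.29 without replicate 2 (edgeR). Such a fit has a CPEB4 RIP arm of 1 sample. Most genes called lower over IgG lost their call there too, so the losses are not particular to these 3 genes. Without input replicate 1 or 2, Pgm3 lost its call. Without IgG RIP replicate 2 the log2 fold changes of the 3 genes were -1.67, -0.69 and -0.89, and without replicate 1 they were -1.03, -1.07 and -1.46. A fit without an IgG RIP library has an IgG arm of 1 sample and calls many more of all genes, so passing there adds no support. With an offset for gene length, added after seeing the data, the log2 fold changes were -1.56, -1.17 and -1.28 with adjusted p of 0.0823, 0.133 and 0.119, in a fit that called 0 of all genes over IgG (edgeR).

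**Figure D2:**
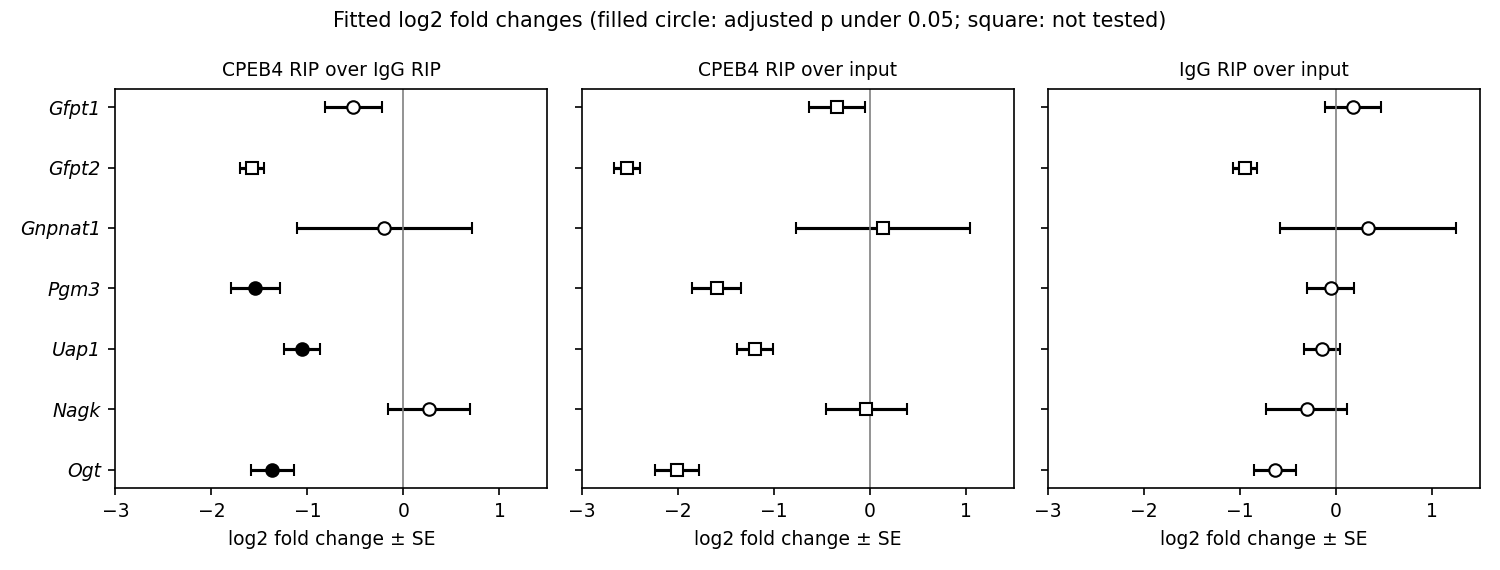
Fitted log2 fold changes with SE bars for the 7 genes in the comparisons of CPEB4 RIP with IgG RIP (left), CPEB4 RIP with input (middle) and IgG RIP with input (right). Filled circles passed an adjusted p of 0.05, open circles did not, and squares were not tested. Pgm3, Uap1 and Ogt are filled at left, and no circle is filled at right.

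In the comparison of CPEB4 RIP with input, which was used to choose the members, the CPEB4 RIP libraries of 5 of the 7 genes lay below both input libraries, as for 37.6% of all genes, and those of Gnpnat1 and Nagk overlapped with input. Of all 18054 genes, edgeR called 12.7% over input, 849 lower and 1445 higher. The members' median was -1.19, and -0.77 without Gfpt2, which was chosen for this difference, beside -0.06 for all genes. The log2 fold changes ran from -2.53 for Gfpt2 over -2.00 for Ogt, -1.59 for Pgm3, -1.19 for Uap1, -0.34 for Gfpt1 and -0.03 for Nagk to 0.14 for Gnpnat1. This comparison shares the CPEB4 RIP libraries with the one over IgG.

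IgG RIP over input gives the background of the precipitation. Of the 6 tested members 0 passed, and over all genes 0.00% were called by edgeR, with 2550 genes at an unadjusted p under 0.05. The DESeq2 Wald test called 279 genes lower and 427 higher. The median of the members was -0.14, beside 0.05 for all genes. Gfpt2 and Ogt were the 2 members of 7 whose IgG RIP libraries lay below both input libraries, which held for 20.7% of all genes.

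Per length, the order of the members in input was Gfpt2 at 172 ± 3.14 FPKM, Uap1 at 143 ± 19.7, Ogt at 9.87 ± 0.0125, Pgm3 at 6.45 ± 0.554, Gfpt1 at 1.52 ± 0.192, Nagk at 1.43 ± 0.0946 and Gnpnat1 at 0.114 ± 0.0548 (SD, n = 2 each). Gfpt1 and Nagk overlapped in input and had no order. Gfpt2 had rank 181 and Uap1 rank 228 from the top of the tested genes in mean input FPKM, and Gnpnat1 had rank 16984. The first and last enzymes of the route were thus among the messages with high levels per length, and the counted level of the acetyltransferase between them was near the bottom.

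In CPEB4 RIP the order at the top was turned: Uap1 stood at 62.7 ± 3.83 FPKM and Gfpt2 at 30.0 ± 0.0299 (SD, n = 2 each), while in IgG RIP they stood at 123 ± 30.1 and 84.1 ± 1.23. In each library these 2 messages together made up 92.5% to 94.5% of the members' summed FPKM. Gfpt2 alone was 30.8% and 29.2% of that sum in the CPEB4 RIP libraries, 42.3% and 34.3% in IgG RIP, against 54.0% and 49.2% in input. The summed FPKM was 97.2 and 103 in the CPEB4 RIP libraries, 201 and 242 in IgG RIP, against 323 and 346 in input, with no overlap between groups. As a share of assigned counts, the 7 genes took 0.0596% and 0.0616% in the CPEB4 RIP libraries, 0.153% and 0.154% in IgG RIP, against 0.253% and 0.248% in input. Gfpt2 was chosen for being high in input and low in CPEB4 RIP. The turned order, the Gfpt2 share, the sums and the count share are thus partly set by that choice. All genes summed to 311042 and 317058 FPKM in CPEB4 RIP, 221780 and 258085 in IgG RIP, against 220313 and 233714 in input.

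**Figure D3:**
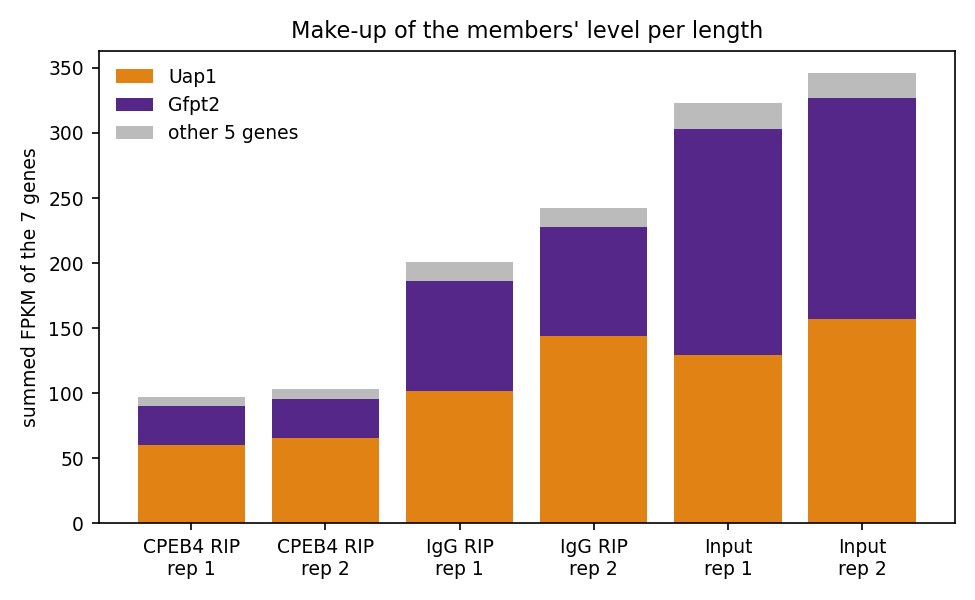
Summed FPKM of the 7 genes per library, split into Uap1, Gfpt2 and the other 5. The bars reach 97.2 and 103 in the CPEB4 RIP libraries, 201 and 242 in IgG RIP, against 323 and 346 in input, and the Gfpt2 part is larger than the Uap1 part in the input libraries alone. Gfpt2 was chosen by its levels in input and CPEB4 RIP, which partly sets this order.

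Genes around the route are given by group, beside medians over all genes of -0.07 over IgG and -0.06 over input. Of all genes, 4.79% were higher and 3.42% lower over IgG, and 12.7% were called over input in either direction. Among 14 genes of sugar entry and hexosamine turnover, 13 were tested, of which 0 were higher and 1 was lower over IgG, with a median of 0.11. The lower one was Hk2, the inducible hexokinase, which stood at 109 and 117 CPM in CPEB4 RIP, 241 and 235 CPM in IgG RIP, against 257 and 299 CPM in input (log2 fold change over IgG -1.08, SE 0.15, adjusted p = 0.0110; over input -1.30, SE 0.15, adjusted p = 0.00331, edgeR). It was the lowest in CPEB4 RIP, like Uap1.

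Over input, 1 gene of this list was higher and 1 was lower, at a median of 0.19. The higher one was Cmas, which activates sialic acid, a product made from UDP-GlcNAc, at 8.78 and 10.1 CPM in CPEB4 RIP, 3.09 and 3.02 CPM in IgG RIP, against 1.58 and 1.09 CPM in input (log2 fold change over input 2.81, SE 0.46, adjusted p = 0.00945, edgeR). Over IgG it stood at 1.63 and did not pass (adjusted p = 0.0632, edgeR).

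Of 9 genes of O-GlcNAc cycling and of proteins that bind OGT, 0 passed over IgG (median -0.17), and over input 1 was higher and 0 were lower (median -0.17). In 10 of 18 alternatives 1 gene, Oga, was lower over input. The higher one was Trak1, a mitochondrial transport adaptor that OGT modifies, at 107 and 111 CPM in CPEB4 RIP, 65.5 and 77.3 CPM in IgG RIP, against 53.9 and 46.6 CPM in input (log2 fold change over input 1.11, SE 0.17, adjusted p = 0.00808; over IgG 0.61, adjusted p = 0.0729, edgeR). Both CPEB4 RIP libraries were above the others.

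Oga, the enzyme that opposes OGT, is named after its values were seen. It stood at 86.3 and 79.1 CPM in CPEB4 RIP, 79.3 and 134 CPM in IgG RIP, against 146 and 159 CPM in input. CPEB4 RIP overlapped with IgG RIP (log2 fold change -0.37, SE 0.24, adjusted p = 0.371) and lay below input, where the log2 fold change of -0.89 (SE 0.24) was close to the threshold with an adjusted p of 0.0550 by edgeR. Over input Oga passed in 10 of 18 alternatives, with log2 fold changes from -1.10 to -0.51 over the 18. Among the passes were the DESeq2 size factors (-0.94, adjusted p = 0.0300, edgeR), library size alone (-1.10, 0.0122, edgeR) and the DESeq2 Wald test (-0.94, 0.000541). The fits without 1 IgG RIP library were also among them. Apart from fits that left out 1 library, the settings called 126 to 3794 of all genes lower over input. The number of passes therefore adds no support. Over IgG Oga passed without IgG RIP replicate 1 (log2 fold change -0.51, edgeR), in the fit with a lone IgG library described for Gfpt1. The ratio of Ogt to Oga in FPKM was 0.348 and 0.365 in the CPEB4 RIP libraries, 0.758 and 0.687 in IgG RIP, against 0.801 and 0.749 in input. It was lower in both CPEB4 RIP libraries than in any other library. The ratio was not tested.

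Among 14 genes that carry UDP-GlcNAc into the Golgi or use it for N-glycans and GPI anchors, 13 were tested, and 1 was higher and 0 were lower over IgG as over input, at medians of 0.23 and 0.02. It was Mgat4b, a branching enzyme of N-glycans, at 19.97 and 21.6 CPM in CPEB4 RIP, 8.32 and 5.44 CPM in IgG RIP, against 5.93 and 5.31 CPM in input (log2 fold change over IgG 1.60, SE 0.33, adjusted p = 0.0292; over input 1.88, SE 0.33, adjusted p = 0.0115, edgeR). CPEB4 RIP was above the other libraries.

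The makers of hyaluronan and heparan sulfate, matrix sugars, held calls in both directions. Of 13 fibro-adipogenic markers 2 were higher over IgG and 4 over input, 0 were lower, and 11 and 9 did not pass. Of all genes, 4.79% were higher and 3.42% lower over IgG, and 12.7% were called over input in either direction. The part of other cell types in these calls was not tested. Of 12 genes, 9 were tested, and over IgG 3 were higher and 1 was lower (median 0.40), while over input 2 were higher and 1 was lower (median -0.25). The heparan sulfate polymerase Ext1 stood at 88.3 and 88.0 CPM in CPEB4 RIP, 19.8 and 38.5 CPM in IgG RIP, against 27.4 and 29.4 CPM in input (log2 fold change over IgG 1.59, SE 0.30, adjusted p = 0.0233; over input 1.64, adjusted p = 0.0139, edgeR). Ndst1, which modifies the same chain, stood at 154 and 164 CPM in CPEB4 RIP, 66.2 and 94.7 CPM in IgG RIP, against 67.7 and 69.2 CPM in input (0.98 over IgG, adjusted p = 0.0287; 1.22 over input, adjusted p = 0.00948, edgeR). Extl3, which starts the chain, stood at 20.7 and 17.4 CPM in CPEB4 RIP, 7.14 and 6.72 CPM in IgG RIP, against 13.5 and 10.1 CPM in input. It rose over IgG (1.46, SE 0.30, adjusted p = 0.0296) and did not pass over input (0.68, adjusted p = 0.173, edgeR).

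The hyaluronan synthase Has1 had the opposite sign. It stood at 90.9 and 61.1 CPM in CPEB4 RIP, 148 and 135 CPM in IgG RIP, against 249 and 262 CPM in input, with no overlap between groups. Has1 fell by 0.90 on the log2 scale over IgG (SE 0.21, adjusted p = 0.0408) and by 1.75 over input (SE 0.21, adjusted p = 0.00364, edgeR). Its call over IgG was lost in 9 of 18 alternatives, among them the fits without either CPEB4 RIP or either input library.

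The calls of Hk2, Mgat4b, Ext1, Extl3, Ndst1 and Has1 over IgG were lost without CPEB4 RIP replicate 1 and without replicate 2, all with the same direction. These fits have a CPEB4 RIP arm of 1 sample, and most calls of all genes lower over IgG were lost there too. Mgat4b lost its call over IgG in 7 of 18 alternatives, also with only the 4 libraries compared (adjusted p = 0.0649, edgeR) and without input replicate 1 or 2. Extl3 lost it in 5 of 18 (adjusted p = 0.0536 with only the 4 libraries, edgeR). Cmas and Trak1 passed over IgG without IgG RIP replicate 1 or 2, in fits with a lone IgG library, where passing adds no support. Both also passed with the DESeq2 Wald test (adjusted p = 0.0313 and 0.0161). That test called 1541 of all genes higher over IgG, against 864 in the main fit. Calls over input were lost without CPEB4 RIP replicate 2 for Hk2, Cmas, Trak1, Mgat4b, Ext1, Ndst1 and Has1, and without replicate 1 for Cmas, Mgat4b and Ext1. Without input replicate 1 they were lost for Cmas, Mgat4b, Ext1 and Ndst1, and without input replicate 2 for Cmas, Trak1, Mgat4b and Ext1. With the gene length offset the call of Hk2 over input was lost (adjusted p = 0.0671, edgeR).

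**Figure D4:**
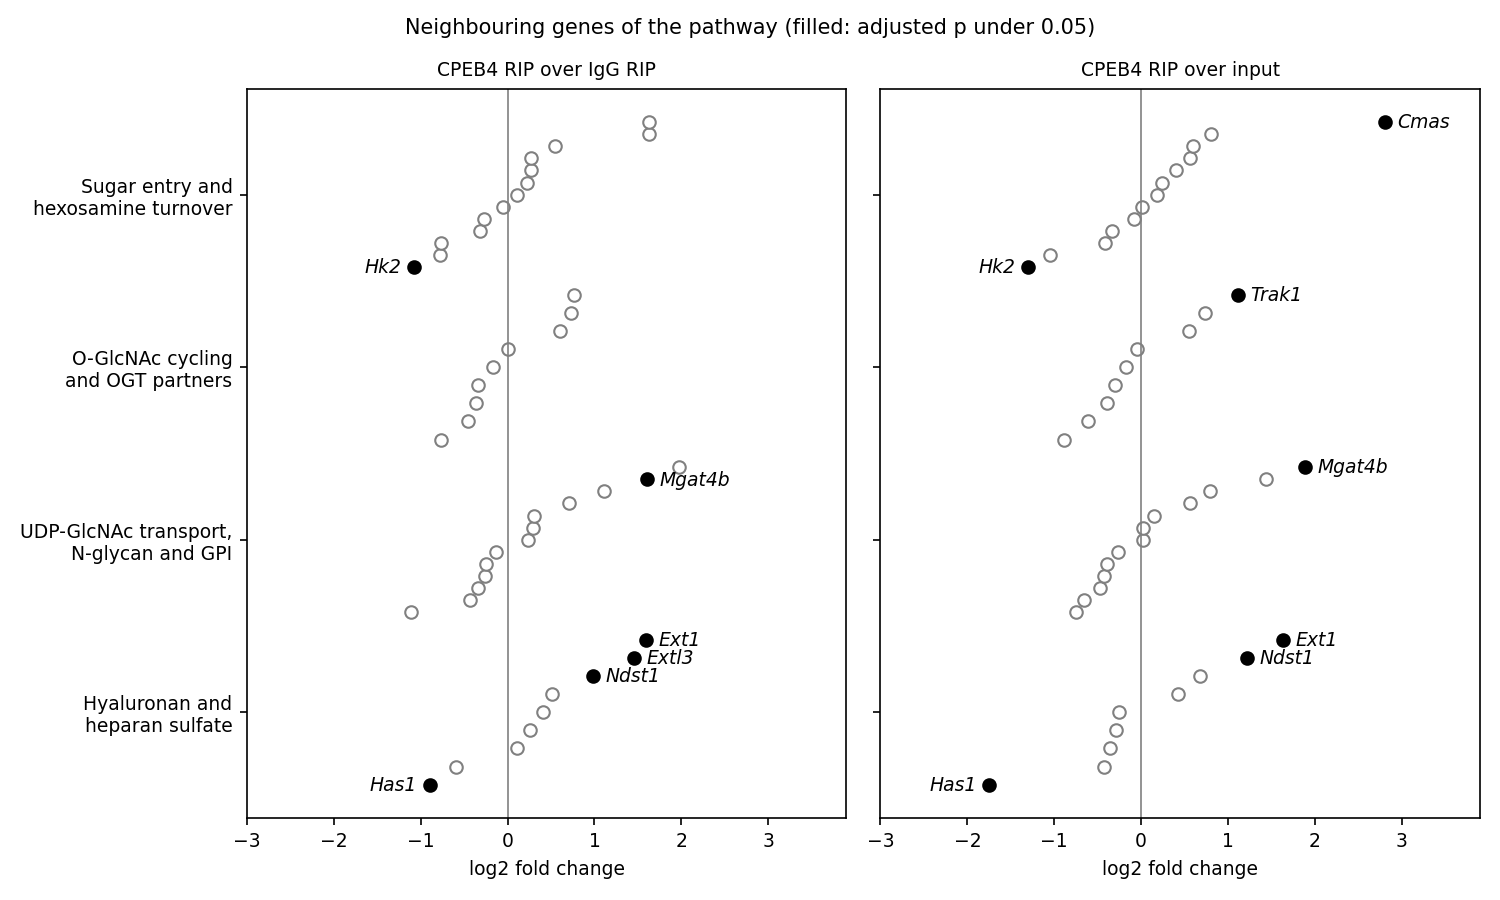
Log2 fold changes of the tested genes of 4 neighbouring groups in CPEB4 RIP over IgG RIP (left) and over input (right), with filled points at an adjusted p under 0.05. Hk2 and Has1 are the filled points left of 0, and Mgat4b, Ext1 and Ndst1 lie right of 0 on both sides.

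The messages whose pattern over the 6 libraries was most like that of Gfpt2 were, in order, the transcription factor Hbp1, the anticoagulant protein Pros1, the kinase Plk2, the ubiquitin ligase Fbxo30 and the chaperone of the endoplasmic reticulum Hspa5. Likeness was the root mean square difference of log2(CPM + 1), centred on each gene's mean, among 5228 genes with a RefSeq name and a mean of at least 20 CPM, and it was 0.17 for Hbp1 and 0.25 for Hspa5. Hbp1 stood at 153 and 169 CPM in CPEB4 RIP, 469 and 371 CPM in IgG RIP, against 684 and 818 CPM in input. Each of the 5 was lowest in CPEB4 RIP and highest in input, with the IgG RIP libraries between.

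**Figure D5:**
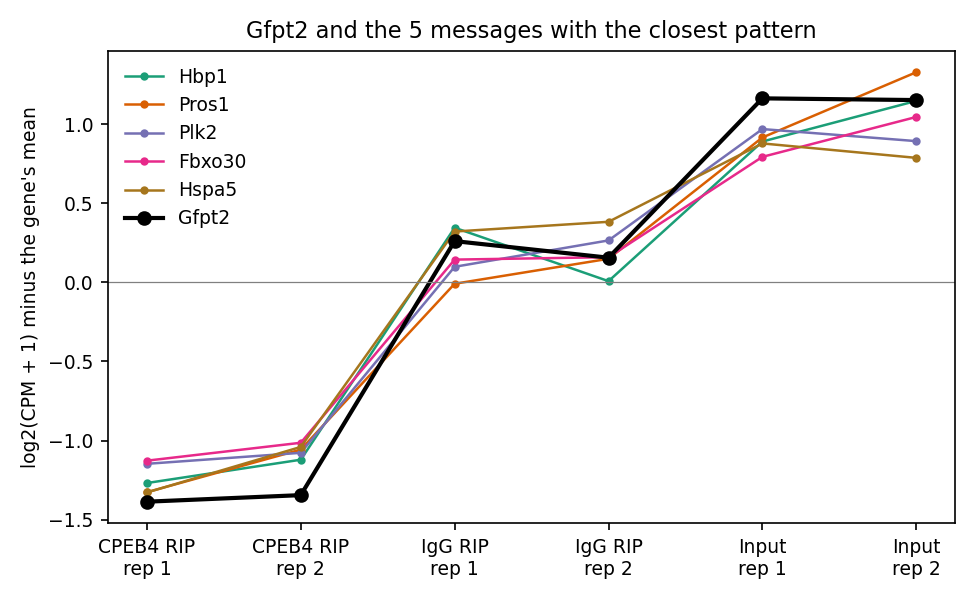
Log2(CPM + 1) minus each gene's mean over the 6 libraries, for Gfpt2 (black) and the 5 messages with the closest pattern. All 6 lines are lowest in the CPEB4 RIP libraries and highest in the input libraries, and Gfpt2 has the lowest points of the 6 in CPEB4 RIP.

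Ogt had closer neighbours by the same measure. They were Syne2, a protein of the nuclear envelope (0.08), the nuclear pore protein Nup93 (0.12), the actin regulator Cyfip1 (0.14), Plk2 (0.14) and the threonyl-tRNA synthetase Tars (0.14). Plk2 was the 1 gene near both Ogt and Gfpt2. For Gfpt1 the closest were Ptar1, Lysmd3, the lipid kinase Pikfyve, the polyadenylation factor Cpsf2 and the topoisomerase Top2b, at 0.04 to 0.05. These 5 shared with Gfpt1 a high value in IgG RIP replicate 2, such as 88.9 CPM for Ptar1 there against 55.0 CPM in replicate 1.

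The gene models of the members differed in length. Relative to the median tested gene, as far as counts and FPKM give it, they ranged from 1.04 for Uap1 over 1.16 for Pgm3, 1.21 for Nagk, 1.23 for Gnpnat1 and 1.45 for Gfpt2 to 2.08 for Ogt and 2.61 for Gfpt1.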

How the data were processed

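Members and gene lists were chosen with earlier results of these data known. Reads were aligned to mm10 and counted per gene with HISAT2 and featureCounts, per the submitters' processing notes. No source used here states versions, annotation, strand setting or the treatment of reads with several matches. Whole-number counts per gene, not normalized, were deposited, and FPKM values were deposited beside them, scaled to a library total that is not stated. All 7 members matched RefSeq symbols on GRCm38.p6.

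The main test was run with edgeR 4.0.16 (R 4.3.3): filterByExpr (minimum count 10, minimum total 15), TMM scaling, and 1 quasi-likelihood fit by group over the 6 libraries (residual degrees of freedom 3), with p-values adjusted over 18054 genes. SE is the absolute log2 fold change over the root of F. Replicates differed by more than sampling noise (chi-square per degree of freedom of 8.03 to 28.1). Alternatives used DESeq2 1.42.0, limma 3.58.1 on log2(FPKM + 1) and log2(FPKM + 0.1), other filters and scalings, a gene length offset (loess span 0.3) and each library left out; the length offset was chosen after seeing the data. The steps were run on simulated counts in which all groups shared the same spread per gene. That run does not cover the unequal spread of the groups here. Named neighbours passed the test over IgG or over input, at most 4 a comparison from each list by smallest p; Oga is an exception. The 5 genes of closest pattern were named for Gfpt1, Gfpt2 and Ogt.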

Additional observations from a re-analysis of the deposited data

How the results depend on the processing

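Of the 6 tested members, 3 were lower over IgG with edgeR, and 0 were lower with limma on log2(FPKM + 1) without a filter and with the gene length offset; fits that left out 1 library gave 0 to 4 lower and 0 to 1 higher. Members lower in IgG RIP over input numbered 1 with the DESeq2 Wald test, and 0 to 1 when 1 library was left out. The log2 fold change of Gfpt2 in CPEB4 RIP over input was -2.58 with DESeq2 size factors and with the DESeq2 Wald test, -2.74 with library size alone, -2.42 with no filter on low counts, -2.68 with a mean count of at least 20, -2.57 with only the 4 libraries compared, -2.48 with limma on log2(FPKM + 1) with or without a filter, -2.27 with the gene length offset, and -2.52 to -2.39 when 1 library was left out. The cause of these shifts was not tested. No called value of a member or named neighbour changed sign. Pgm3 also lost its call over IgG with only the 4 libraries compared (adjusted p = 0.0517, edgeR).

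Counts over all genes moved more. Over IgG, 618 were lower and 864 higher, against 1351 and 1541 with the DESeq2 Wald test, 1103 and 990 with a mean count of at least 20, 1026 and 903 with library size alone, 375 and 598 with the 4 libraries, 403 and 1312 with limma on log2(FPKM + 1), 41 and 277 with limma and no filter, 920 and 1508 with no filter on low counts, 391 and 1127 with limma on log2(FPKM + 0.1), 0 and 0 with the length offset, and 0 to 3491 lower and 0 to 4913 higher when 1 library was left out. Over input, 849 were lower and 1445 higher, with 126 to 3794 and 502 to 3546 across the other settings, and 22 to 3780 and 95 to 4205 when 1 library was left out. In IgG RIP over input edgeR called 0 genes (2550 at an unadjusted p under 0.05), against 279 lower and 427 higher with the DESeq2 Wald test, 170 and 287 with no filter on low counts, up to 4 and 1 with limma, and 0 to 4356 lower and 0 to 2301 higher when 1 library was left out.

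Replicate numbers do not pair the samples by any label, and differences between replicates correlated at 0.13, -0.02 and 0.07 between groups. With the replicate number as a block, 3 members were lower over IgG and the log2 fold change of Gfpt2 over input was -2.53. Oga passed over input at -0.88 (adjusted p = 0.0342, edgeR). Over all genes 784 were lower and 1066 higher over IgG, and 7 and 18 in IgG RIP over input. Depth limits Gnpnat1 above the other members.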
